A study of Homo sapiens with 4 samples.

Results

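Expression of 10 genes of the stress-activated MAP kinase modules was followed in the human gastric cancer line MKN28. They were the c-Jun N-terminal kinases (JNK) MAPK8, MAPK9 and MAPK10, the p38 kinases MAPK11, MAPK13 and MAPK14, the upstream kinases MAP2K4 and MAP2K7, and the scaffolds MAPK8IP2 and MAPK8IP3. These 10 genes were listed among 23362 in the deposited table, and 9 of them passed a filter on low values. The study sequenced 4 cell populations, with 1 library each, all from stable MKN28 lines made with a tetracycline-inducible (tet-on) retroviral system and selected with G418 and puromycin. They carried luciferase (Luc, the control), HA-tagged KIAA1324 WT, the 3NQ mutant, in which asparagines of N-glycosylation sites were changed to glutamine, or the ΔTM mutant, which lacks the transmembrane domain. KIAA1324 is a membrane protein described as a tumour suppressor of gastric cancer. The comparisons ask which transcripts differ with the WT protein and not with the mutants. Of these, 3NQ concerns glycosylation, whereas the paper used ΔTM as a form without function. The paper describes the sequenced cells as expressing these constructs. The sources used here do not state whether, or how long, doxycycline had been present when RNA was harvested.

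MAP kinases act in a relay in which a MAP kinase kinase kinase phosphorylates a MAP kinase kinase, which in turn phosphorylates a MAP kinase on a threonine and a tyrosine of its activation loop. JNK and p38 are the branches that respond to stress and cytokines, whereas the ERK branch responds mainly to growth factors. MAP2K4 (MKK4) phosphorylates JNK and can also phosphorylate p38, MAP2K7 (MKK7) is specific for JNK, and MAP2K3 and MAP2K6 act on p38. JNK-interacting proteins, of which MAPK8IP2 (JIP2) and MAPK8IP3 (JIP3) are members, hold the kinases of a module together. The libraries measured transcripts only, and neither protein nor phosphorylation of these kinases was measured in the values used here.

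The stretch that carries the phosphorylated threonine and tyrosine is shown for the 6 MAP kinases, because it separates the JNK from the p38 members and shows how alike their transcripts are. Each sequence is the coding strand, read 5′ to 3′ on GRCh37 from the codons of the conserved Asp-Phe-Gly motif to those of the Ala-Pro-Glu motif, and the capitals mark the codons of the threonine, the residue between and the tyrosine.
MAPK8: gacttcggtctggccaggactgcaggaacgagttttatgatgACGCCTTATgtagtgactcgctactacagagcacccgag
MAPK9: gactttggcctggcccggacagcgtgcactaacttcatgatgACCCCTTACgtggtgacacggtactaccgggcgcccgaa
MAPK10: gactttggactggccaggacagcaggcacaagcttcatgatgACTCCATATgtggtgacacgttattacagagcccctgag
MAPK11: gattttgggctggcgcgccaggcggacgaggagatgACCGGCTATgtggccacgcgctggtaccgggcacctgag
MAPK13: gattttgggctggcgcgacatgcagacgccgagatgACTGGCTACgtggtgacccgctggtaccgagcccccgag
MAPK14: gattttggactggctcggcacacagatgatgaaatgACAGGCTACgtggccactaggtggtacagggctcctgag
The middle codon of the capitals codes for proline in the 3 JNK members and for glycine in the 3 p38 members. The stretches lie at chr10:49628252-49628332 on the plus strand for MAPK8, at chr5:179676004-179676084 on the minus strand for MAPK9 and at chr4:87022236-87022316 on the minus strand for MAPK10. Those of the p38 members lie at chr22:50705397-50705471 on the minus strand for MAPK11, at chr6:36104439-36104513 on the plus strand for MAPK13 and at chr6:36043631-36043705 on the plus strand for MAPK14. Each was inside a single coding exon of the canonical transcript, exon 6 of 12 in MAPK8 and MAPK9, exon 8 of 14 in MAPK10 and exon 7 of 12 in the 3 p38 genes.

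The JNK stretches are 81 bases long, and MAPK8 shared 61 of them (75.3%) with MAPK9 and 66 (81.5%) with MAPK10. Among the p38 stretches of 75 bases, MAPK11 shared 62 (82.7%) with MAPK13 and 59 (78.7%) with MAPK14, while MAPK13 and MAPK14 shared 56 (74.7%). Over whole canonical transcripts, the longest run of identical bases was 28 for MAPK8 and MAPK9, 37 for MAPK8 and MAPK10, 26 for MAPK11 and MAPK14, and 20 for MAPK13 and MAPK14. It was 14 bases for MAP2K4 and MAP2K7 and 14 for MAPK8IP2 and MAPK8IP3. The authors' quantification corrected for reads that map to several places, and how far it divided reads between these relatives was not tested.

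Expression was given as FPKM, a fragment count scaled for transcript length and library size, so that levels can be compared between genes. Differences between libraries are log2 ratios of FPKM + 1, which understate the change of low genes, and they cover the 11769 genes that reached an FPKM of 1 in some library. A ratio of at least 1.5-fold in either direction was taken as a call. With 1 library per group no difference had a replicate check, the error of a value could not be given, and no p-value was computed. Depth is unknown because the table holds no counts, and the FPKM summed to between 560540 and 585104 per library. KIAA1324, the gene introduced, was listed with an FPKM of 2.86 for Luc, 11185 for WT, 8197 for 3NQ and 0 for the ΔTM-labelled library. The last value is not what the label of a library carrying a KIAA1324 construct would give, but a listed 0 can also be a failed estimate. Which of these holds could not be checked, and directions drawn from this library rest on the label alone.

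Of the 8 epithelial marker genes, 8 passed the filter in these libraries, with EPCAM, an epithelial adhesion molecule, at an FPKM of 345 to 391. Of 8 neural or endocrine markers 3 passed (TUBB3, MAP2 and ENO2), whereas the synaptic and neuroendocrine markers SYP, CHGA and SNAP25 did not. That list was read because MAPK10 and MAPK8IP2 are best known from brain. As for any bulk RNA, fewer cells with a transcript and less of it per cell cannot be told apart.

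MAPK8IP2, the scaffold JIP2, was higher in WT than in each of the other 3 libraries, and the other 8 genes that passed the filter were called in none of the 6 comparisons. WT against Luc thus called 1 of the 9 passing genes higher and 0 lower, where 789 of all 11769 genes (6.70%) were called. Against 3NQ, WT again had 1 of 9 called higher, with 526 of all genes (4.47%) called, and against the ΔTM-labelled library it had 1 of 9, with 843 (7.16%) called. None of the 9 was called for 3NQ against Luc, where 511 genes (4.34%) were called, for the ΔTM-labelled library against Luc (366 genes, 3.11%), or for 3NQ against the ΔTM-labelled library (393 genes, 3.34%). The comparisons against Luc share that library, and those of WT share the WT library.

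Among the JNK genes, 2 of 3 passed the filter. MAPK9 (JNK2; ENSG00000050748), on chromosome 5 from 179660143 to 179719099, had an FPKM of 49.4 for Luc, 45.6 for WT, 52.8 for 3NQ and 48.4 for the ΔTM-labelled library. MAPK8 (JNK1; ENSG00000107643), on chromosome 10 from 49514698 to 49647403, had an FPKM of 32.4, 27.5, 33.7 and 30.4 in the same order. Both were lowest in WT and highest in 3NQ, with a highest FPKM 1.16 times the lowest for MAPK9 and 1.23 times for MAPK8. Neither was called in any of the 6 comparisons, and the log2 ratio of WT to Luc was −0.11 for MAPK9 and −0.23 for MAPK8. Between WT and 3NQ, the lowest and the highest library, it was −0.21 for MAPK9 and −0.28 for MAPK8. MAPK10 (JNK3; ENSG00000109339), on chromosome 4 from 86936276 to 87515284, is the JNK known chiefly from brain. Its FPKM was 0.135, 0.215 and 0.129 in Luc, WT and 3NQ and was listed at 0 in the ΔTM-labelled library, so that it did not pass the filter and no call was made.

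MAPK9 stood above MAPK8 in each library, with a ratio of FPKM of 1.52 for Luc, 1.66 for WT, 1.57 for 3NQ and 1.59 for the ΔTM-labelled library. MAPK8 made up 37.5% to 39.5% and MAPK9 60.3% to 62.2% of the summed JNK FPKM. The sum itself was 81.9 for Luc, 73.3 for WT, 86.6 for 3NQ and 78.7 for the ΔTM-labelled library, so that WT had the lowest and 3NQ the highest.

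**Figure D1:**
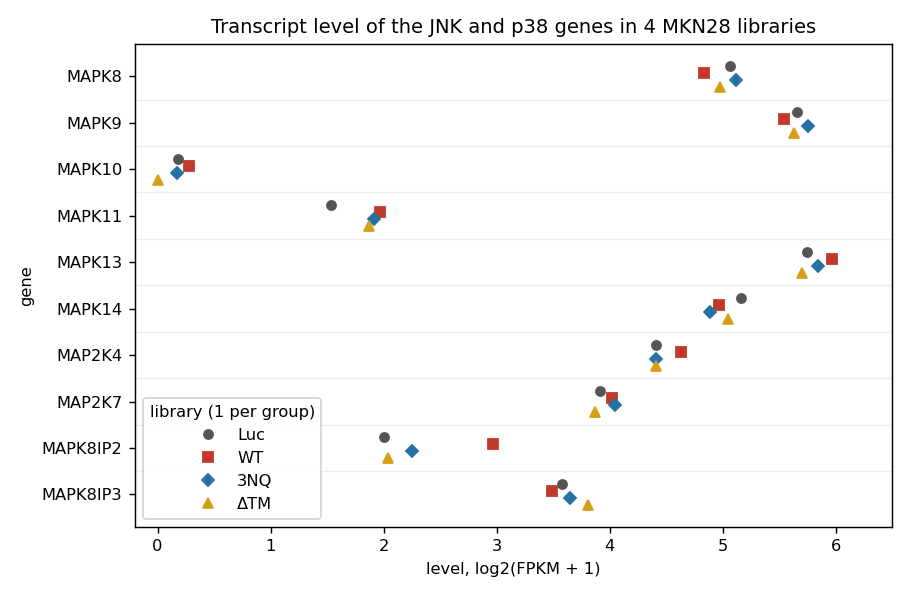
Level as log2(FPKM + 1) of the 10 genes in each of the 4 libraries, with 1 point per library. MAPK13, MAPK9, MAPK8 and MAPK14 lie highest and MAPK10 lowest, and the points of MAPK8IP2 are the most spread among the genes that passed the filter, from an FPKM of 3.01 in Luc to 6.82 in WT.

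Of the p38 kinases, MAPK13 (p38δ; ENSG00000156711) and MAPK14 (p38α; ENSG00000112062) carried most of the transcript. The genes neighbour each other on the plus strand of chromosome 6, MAPK14 from 35995488 to 36079013 and MAPK13 from 36095586 to 36107842, with 16572 bases between. MAPK13 had an FPKM of 52.6 for Luc, 61.6 for WT, 56.4 for 3NQ and 51.0 for the ΔTM-labelled library. MAPK14, the broadly expressed p38, had an FPKM of 34.7, 30.3, 28.6 and 32.0 in the same order. MAPK13 was thus highest in WT, where its log2 ratio to Luc was 0.22, while MAPK14 was highest in Luc, with log2 ratios to it of −0.19 in WT and −0.27 in 3NQ. None of these reached the 1.5-fold call.

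The ratio of FPKM of MAPK13 to MAPK14 was 1.52 in Luc and 1.60 in the ΔTM-labelled library, against 2.03 in WT and 1.97 in 3NQ. MAPK13 made up 53.7% of the summed p38 FPKM in Luc and 53.0% in the ΔTM-labelled library, against 59.3% in WT and 58.4% in 3NQ, with MAPK12 (p38γ) counted in that sum. MAPK14 made up 35.4% in Luc and 33.2% in the ΔTM-labelled library, against 29.2% in WT and 29.6% in 3NQ. The sum was 98.0 for Luc, 103.9 for WT, 96.5 for 3NQ and 96.3 for the ΔTM-labelled library. The ratio of this pair was examined after the values were seen.

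MAPK11 (p38β; ENSG00000185386), on the minus strand of chromosome 22 from 50702142 to 50709196, was the least abundant p38 kinase. Its FPKM was 1.90 for Luc, 2.92 for WT, 2.77 for 3NQ and 2.66 for the ΔTM-labelled library. Luc was the lowest, and the other 3 libraries lay close together. Relative to Luc, the log2 ratio of FPKM + 1 reached 0.43 for WT, 0.38 for 3NQ and 0.33 with the ΔTM-labelled library, all short of the call. With a pseudocount of 0.1 in place of 1 the WT ratio was 0.59 and passed it. MAPK12, which lies 1887 bases from MAPK11 on the same strand, had an FPKM of 8.76, 9.02, 8.74 and 10.6 in the same order and was not called.

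**Figure D2:**
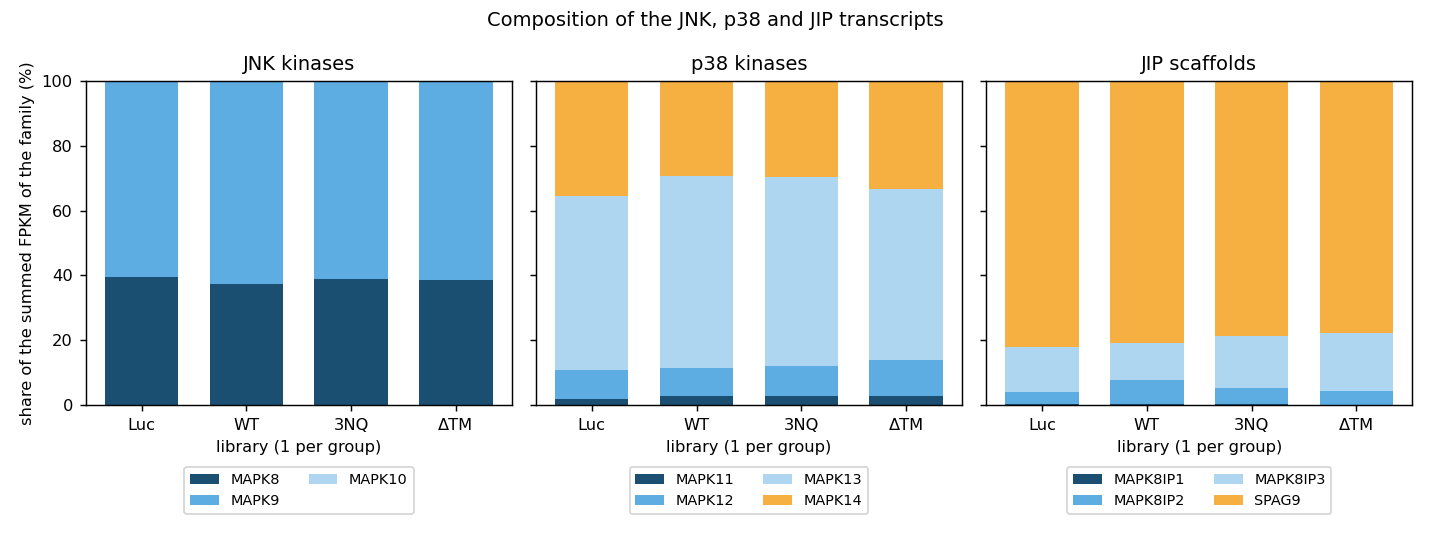
Stacked bars of the share in percent of the summed FPKM of the JNK kinases, the p38 kinases and the JIP scaffolds taken by each gene, in each of the 4 libraries. The share of MAPK8 within JNK stays between 37.5% and 39.5%, the share of MAPK13 within p38 is 53.7% in Luc and 59.3% in WT, and the share of MAPK8IP2 among the JIP scaffolds is highest in WT, at 7.60%.

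The MAP kinase kinases of the JNK branch were expressed at intermediate levels. MAP2K4 (ENSG00000065559), on chromosome 17 from 11924141 to 12047147, had an FPKM of 20.3 for Luc, 23.7 for WT, 20.2 for 3NQ and 20.2 for the ΔTM-labelled library. WT was the highest and the other 3 were almost equal, with a log2 ratio of WT to Luc of 0.22. MAP2K7 (ENSG00000076984), on chromosome 19 from 7968728 to 7979363, had an FPKM of 14.1, 15.2, 15.5 and 13.6 in the same order. Neither gene was called in any of the 6 comparisons, and the ratio of FPKM of MAP2K4 to MAP2K7 ran from 1.302 in 3NQ to 1.56 in WT. A non-coding gene on the opposite strand lies across 871 exon bases of MAP2K7. The authors masked non-coding genes, and whether the mask held this gene is not known. If it did not, reads of the overlap cannot be told apart without strand. For WT against 3NQ the log2 ratio was 0.22 for MAP2K4 and −0.025 for MAP2K7.

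Of the scaffolds, MAPK8IP2 (ENSG00000008735) was the gene called in WT. It spans 51039114 to 51052409 of chromosome 22, plus strand, and measured an FPKM of 3.01 for Luc, 6.82 for WT, 3.75 for 3NQ and 3.12 for the ΔTM-labelled library. WT stood apart, and the other 3 libraries lay within an FPKM of 3.01 to 3.75. The ratio of FPKM was 2.27 for WT over Luc and 1.82 for WT over 3NQ. On the scale of FPKM + 1 the log2 ratio was 0.96 for WT to Luc, 0.72 for WT to 3NQ and 0.93 for WT to the ΔTM-labelled library, whereas it was 0.24 for 3NQ to Luc and 0.038 for the ΔTM-labelled library to Luc.

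Among all 11769 genes, 160 (1.36%) were as far from Luc in WT as MAPK8IP2 or farther, in either direction. For WT against 3NQ the count was 279 (2.37%), and for WT against the ΔTM-labelled library it was 210 (1.78%). The gene is of low abundance, and among the 2516 genes with a mean FPKM of 2 to 8, a range chosen after the values were seen, 236 (9.38%) were called in WT against Luc. With a pseudocount of 5 its log2 ratios in WT were 0.56 to Luc, 0.43 to 3NQ and 0.54 to the ΔTM-labelled library, none of which reached the call. Some marker genes were called in WT against Luc, where 6.70% of all genes were called. Of the 3 neural or endocrine markers that passed the filter, 1 was called higher in WT against Luc, the neuronal tubulin TUBB3, with an FPKM of 20.1 for Luc, 32.0 for WT, 23.3 for 3NQ and 29.5 for the ΔTM-labelled library. SYP and CHGA, defining genes of that list, stayed at or below an FPKM of 0.188. Of the 8 epithelial markers, 2 were called lower, KRT8 and KRT18, with log2 ratios of −0.91 and −0.80, and 6 were not called. The other 2 passing neural or endocrine markers, MAP2 and ENO2, were not called either. The part of these differences in the value of MAPK8IP2 was not tested.

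**Figure D3:**
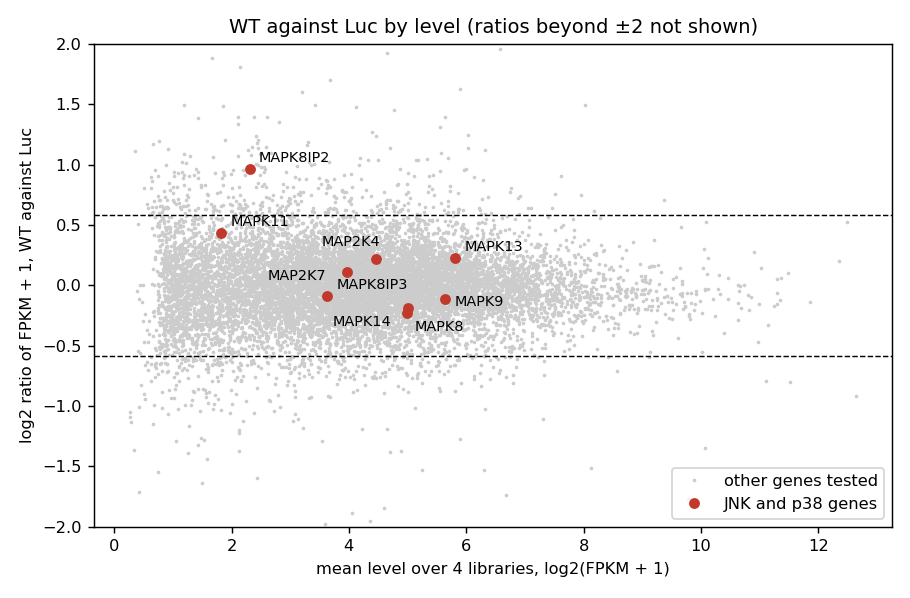
Log2 ratio of FPKM + 1 of WT to Luc against the mean of log2(FPKM + 1) over the 4 libraries, with the other genes that passed the filter as grey points, KIAA1324 and ratios beyond ±2 left out, and the 9 JNK and p38 genes named in red. MAPK8IP2, at a mean FPKM of 4.17, is the only named gene past the dashed 1.5-fold lines.

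The start of MAPK8IP2 overlaps CHKB, a choline kinase gene on the opposite strand, by 771 bases, of which 91 are exon bases of the MAPK8IP2 transcript. The paper names a TruSeq RNA kit and leaves the unlisted Cufflinks options at default, and it names no step that keeps the strand. Reads of the overlap therefore cannot be told apart. CHKB had an FPKM of 6.37 for Luc, 5.46 for WT, 5.85 for 3NQ and 7.37 for the ΔTM-labelled library, and its log2 ratio of WT to Luc was −0.19. The part of the overlap in the value of MAPK8IP2 was not tested. Of the other neighbours that passed the filter, the CHKB-CPT1B readthrough gene was called lower, its FPKM being 2.09 for Luc and 0.906 for WT, a log2 ratio of −0.70. The log2 ratios of WT to Luc were −0.31 for CPT1B, 0.15 for ARSA, −0.0090 for SHANK3 and 0.28 for AC002055.4, none of which reached the call.

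MAPK8IP3 (ENSG00000138834), the scaffold JIP3, spans 1756184 to 1820318 of chromosome 16. It measured an FPKM of 10.9 for Luc, 10.2 for WT, 11.5 for 3NQ and 13.0 for the ΔTM-labelled library, and was called in none of the 6 comparisons. MAPK8IP2 made up 40.1% of the summed FPKM of this pair of scaffolds in WT, against 21.6% in Luc, 24.5% in 3NQ and 19.3% in the ΔTM-labelled library. SPAG9 (JIP4), another scaffold of the family, was far more abundant, with an FPKM of 64.3, 72.5, 57.4 and 56.7 in the same order, and took 77.8% to 82.0% of the JIP total. MAPK8IP1 (JIP1) had an FPKM between 0.0364 and 0.213 and did not pass the filter.

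Against Luc, the 9 genes had a median log2 ratio of 0.11 for WT, 0.095 for 3NQ and −0.029 for the ΔTM-labelled library, beside −0.0049, −0.038 and −0.060 for all genes. The WT median was 0.0099 with a filter at FPKM 5, which leaves out MAPK11. That filter keeps MAPK8IP2 only through its WT value of 6.82, so this median is not free of the WT library's own high value. The median for the ΔTM-labelled library changed sign, to 0.037 with median-of-ratios and 0.029 with upper-quartile scaling. Regardless of sign, the ratio had a median size of 0.218 for WT, 0.0978 for 3NQ and 0.0430 for the ΔTM-labelled library, beside 0.174, 0.148 and 0.129 for all genes.

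**Figure D4:**
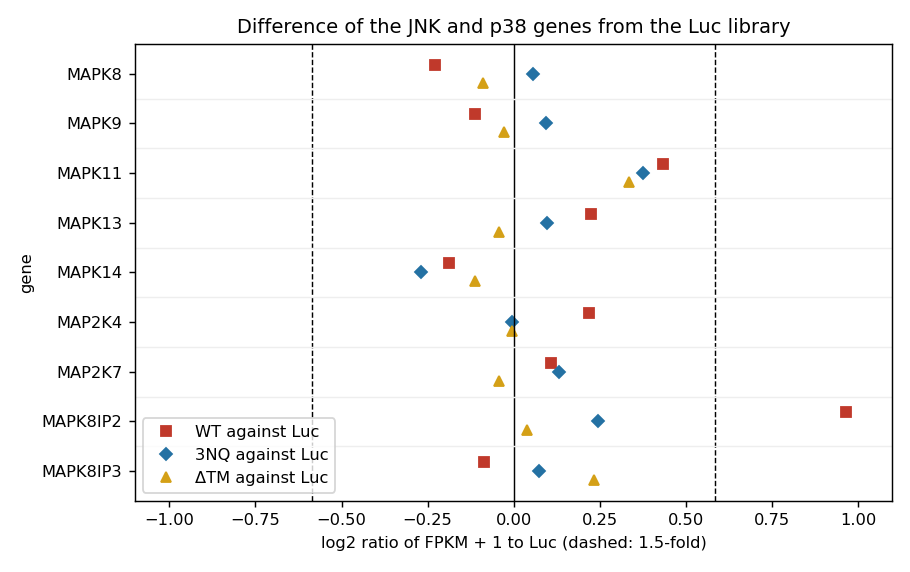
Log2 ratio of FPKM + 1 to Luc of the 9 genes that passed the filter, for WT, 3NQ and the ΔTM-labelled library, with lines at the 1.5-fold call. MAPK8IP2 in WT is the only point past a line, and the 3 points of MAPK11 lie together between 0.33 and 0.43.

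The genes around these kinases were read from lists of the same branches. Of 8 other kinases and scaffolds, 7 passed the filter and 1 was called in WT against Luc, where 6.70% of all genes were called, with a list median log2 ratio of 0.038 beside −0.0049 for all genes. That gene was MAP2K6, one of the activators of p38, with an FPKM of 3.84 for Luc, 1.80 for WT, 2.74 for 3NQ and 4.79 for the ΔTM-labelled library and a log2 ratio of WT to Luc of −0.79. MAP2K3, the other p38 activator, had an FPKM of 32.8, 33.9, 33.8 and 28.6 and was not called, so that the ratio of FPKM of MAP2K3 to MAP2K6 was 8.54 in Luc and 18.8 in WT.

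Of the MAP3K and MAP4K genes, which start the relay, 22 of 23 were in the table and 19 passed the filter. In WT against Luc 0 of the 19 were called, beside 6.70% of all genes, and the median log2 ratio was 0.026. MAP4K4, the most abundant of them, had an FPKM of 112 for Luc, 125 for WT, 106 for 3NQ and 98.9 for the ΔTM-labelled library. MAP3K11 (MLK3), which acts upstream of JNK, had an FPKM of 37.6, 46.2, 40.0 and 34.9 in the same order. The log2 ratio of WT to Luc was 0.15 for MAP4K4 and 0.29 for MAP3K11. For MINK1 and MAP4K3, the next most abundant by mean FPKM, it was −0.076 and 0.026. In WT against 3NQ 1 of the 19 was called, beside 4.47% of all genes. That gene was TAOK1, named after its values were seen, with a log2 ratio of 0.83 and an FPKM of 20.5, 27.4, 15.0 and 21.7 in the same order.

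Among substrates and effectors, 19 of 20 passed, and in WT against Luc 2 were higher and 1 was lower, beside 6.70% of all genes called, with a median log2 ratio of 0.043. For 3NQ against Luc 2 were higher and 2 lower, beside 4.34% of all genes, and for the ΔTM-labelled library 1 was higher, beside 3.11%. JUN, the JNK substrate that forms AP-1, had an FPKM of 15.0 for Luc, 31.8 for WT, 24.6 for 3NQ and 18.3 for the ΔTM-labelled library, and its log2 ratio to Luc was 1.04 in WT and 0.68 in 3NQ. DDIT3 (CHOP), a transcription factor of the stress response that p38 phosphorylates, had an FPKM of 10.04, 21.1, 20.1 and 19.9, with log2 ratios to Luc of 1.00, 0.94 and 0.92. Luc was the only low library for DDIT3, whereas JUN had its highest value in WT and an intermediate one in 3NQ. RPS6KA5 (MSK1), a kinase activated by p38 and ERK, was the gene called lower, with an FPKM of 2.97, 1.49, 1.55 and 2.37.

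Of 10 phosphatases, which remove the activating phosphates, 7 passed and 1 was called in WT against Luc, beside 6.70% of all genes, with a median log2 ratio of 0.25. DUSP8, a dual-specificity phosphatase of JNK and p38, had an FPKM of 1.67 for Luc, 3.95 for WT, 3.72 for 3NQ and 1.62 for the ΔTM-labelled library, and its log2 ratio to Luc was 0.89 in WT and 0.82 in 3NQ. The mean FPKM was low, at 2.74 for DUSP8, 3.29 for MAP2K6 and 2.09 for RPS6KA5. Among the genes with a mean FPKM of 2 to 8, 236 of 2516 (9.38%) were called in WT against Luc. DUSP1 and DUSP2 were listed at 0 in all 4 libraries. Of the 11 genes of the ERK branch, 11 passed and 0 were called in WT against Luc, beside 6.70% of all genes, with a median log2 ratio of 0.041.

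**Figure D5:**
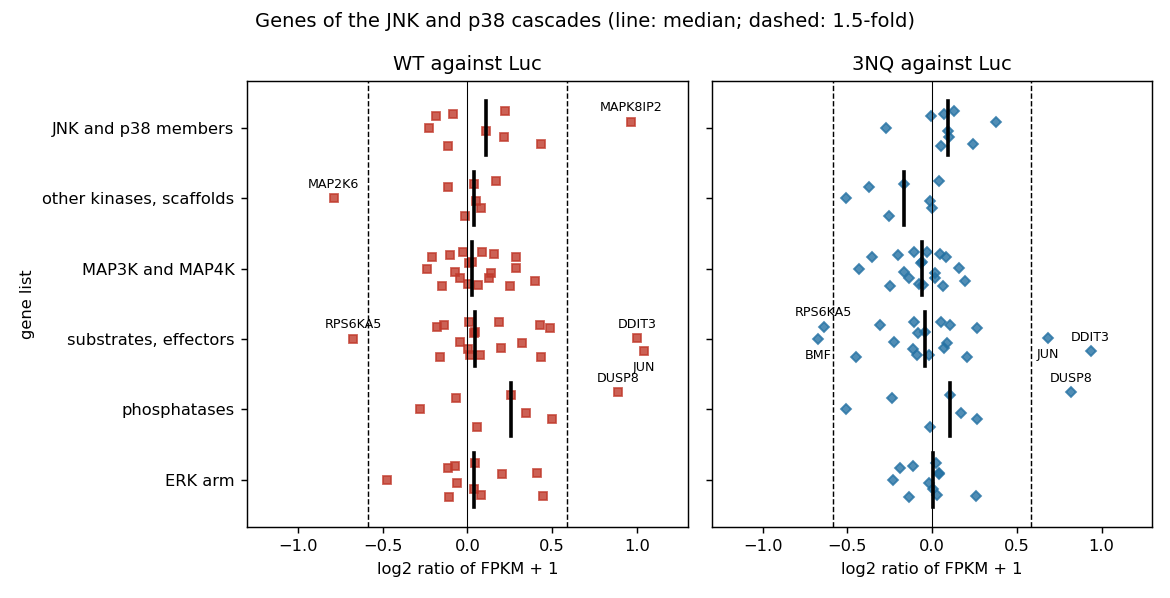
Log2 ratio of FPKM + 1 to Luc of each gene of the 6 lists that passed the filter, for WT and for 3NQ, with the list median as a bar and the 1.5-fold call as dashed lines. In WT the points past a line are MAPK8IP2, JUN, DDIT3 and DUSP8 on the high side and MAP2K6 and RPS6KA5 on the low side, and in 3NQ they are JUN, DDIT3 and DUSP8 high and RPS6KA5 and BMF low, BMF being named after its values were seen.

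The gene of these lists nearest in pattern was sought for each kinase and scaffold, as the smallest Euclidean distance between log2(FPKM + 1) centred on the gene's mean over the 4 libraries, among 60 candidates. With only 4 points per gene, the distance is a description. All candidates came from the JNK and p38 lists, so that a nearest gene tied to these branches was fixed in advance. The role given for each nearest gene is background and no result of the distance. MAPK8 and MAPK9 were each nearest to the other, at a distance of 0.0845. MAPK14 was nearest to ELK1, a transcription factor that MAP kinases phosphorylate (0.0457), and MAP2K4 to ITCH, a ubiquitin ligase regulated by JNK (0.0588). MAP2K7 was nearest to MAP3K13 (0.0433) and MAPK13 to MAP3K5, also known as ASK1 (0.0619), both kinases at the head of the relay. MAPK11 was nearest to MAPKAPK3, a kinase downstream of p38 (0.169), and MAPK8IP3 to MAPK12 (0.143). For MAPK8IP2, JUN was nearest at 0.335 and MEF2D next at 0.345. The distance is not scaled to a gene's own spread, so genes that vary little lie close together whatever their pattern. By the same measure, the distance of a gene from its own mean was 0.776 for MAPK8IP2. For the other members it ran from 0.146 for MAP2K7 to 0.338 for MAPK11, so the distances of different members cannot be ranked as closeness of pattern.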

How the data were processed

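Poly(A) RNA of 4 MKN28 lines was sequenced as 1 library each. Reads with many undetermined or poor bases were removed by the authors, and the remainder were aligned to GRCh37 with TopHat. Cufflinks 2.1.1 then gave an FPKM per Ensembl release 72 gene, with a mask over non-coding genes, multi-read correction and a fragment bias model. Library size and transcript length are therefore already accounted for in the deposited FPKM. The table holds no counts, so depth and intervals are unknown, and a listed 0 can be a failed estimate. Of its 23362 entries, 166 repeat a symbol. Counts over all genes used each entry, and a named gene or list took whichever entry had the higher mean FPKM.

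Log2 ratios of FPKM + 1 for 6 comparisons of 11769 genes (FPKM of at least 1 in a library) were called at 1.5-fold, using pandas 2.3.3 and numpy 2.4.6 under Python 3.11.15. With 1 library per group there was no test. The calling step was tested on simulated data. Other settings tried were a call at 2-fold, a pseudocount of 0.1 or 5, a filter at FPKM 5 or none, and library scaling by upper quartile or by median of ratios. The members of the main list (the 10 genes) and the other lists were chosen with earlier results of these data known. Named were all 10 members, KIAA1324, genes of the other lists called in WT against Luc or among the 4 most abundant of a list, and the gene nearest in pattern to each member. Single values of 1 gene that this rule names are not reported here. Other names, the abundance range and the ratios between genes were chosen after values were seen. Sequences came from GRCh37 with GENCODE 44 lifted to that build, read with Biopython 1.88. Matplotlib 3.10.9 drew the figures.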

Additional observations from a re-analysis of the deposited data

How the results depend on the processing

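The number of the 9 genes called in WT against Luc, 1 in the values above, was 0 at a 2-fold threshold, 2 with a pseudocount of 0.1, where MAPK11 was added, and 0 with a pseudocount of 5. For WT against 3NQ and for WT against the ΔTM-labelled library it was 0 at a 2-fold threshold and 0 with a pseudocount of 5. No called ratio changed sign. Over the settings the median log2 ratio of the genes ran from 0.0099 to 0.12 in WT against Luc. It was lowest with a filter at FPKM 5, which kept MAPK8IP2 only through its WT value. In WT against the ΔTM-labelled library the median ran from 0.038 to 0.13. In the ΔTM-labelled library against Luc it ran from −0.036 to 0.037, with 0.037 under median-of-ratios and 0.029 under upper-quartile scaling. Over all genes, the 2-fold threshold called 79 higher and 67 lower in WT against Luc, a pseudocount of 0.1 called 600 and 659, and a pseudocount of 5 called 147 and 128. For the ΔTM-labelled library against Luc the split was 181 higher and 185 lower, and 222 and 145 after rescaling by the median of ratios. No paired analysis was possible because there was 1 library per group, and unknown depth and the lack of replicates limit each value.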
